A study of Mus musculus with 4 samples.

Results

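The genes described here carry symbols given to proteins of the cytosolic ribosome, which alone does not place each product in the mature ribosome. They were taken by name: protein-coding rows whose symbol has the form of a large (Rpl) or small (Rps) subunit gene, together with Rplp0, Rplp1, Rplp2, Rpsa, Rps4x, Rpl22l1 and Rps27l, and without the S6 kinase genes, whose symbols begin in the same way. This gave 80 genes, 48 of the large and 32 of the small subunit, out of 13685 genes listed in any of the 3 tables, and all 80 were listed in every table. Rpl39l also belongs to the rule, but was not among the rows analysed here.

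The cells were dendritic cells grown from bone marrow of C57BL/6 mice aged 4 weeks, by 7 days of culture with IL-4 and GM-CSF at 10 ng/ml each, conditions that all 4 groups share. One group was kept in control medium, one received the secreted ligand Wnt2, one received CAF.CM, and one received CAF.CM that had been incubated beforehand with an antibody to Wnt2 (CAF.CM+Wnt2 Ab). CAF.CM is the labels' name for the medium of cultured CAFs, a usual abbreviation for cancer-associated fibroblasts. The design text mentions triplicates, but each group has 1 column of values, called a library here. No difference below therefore has a replicate check, none carries a p-value of its own, and the sources used here do not say if a column pools several cultures. The series title names the identification of Wnt2's targets as its aim, and the 3 comparisons are Wnt2 against control, CAF.CM against control, and CAF.CM+Wnt2 Ab against CAF.CM.

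A ribosome is built from ribosomal RNA and one copy of most ribosomal proteins, so cells usually make these proteins in matched amounts. Their mRNAs are short, abundant in most cell types and typically begin with an unbroken run of pyrimidines (C and T in DNA), the 5′ terminal oligopyrimidine tract, through which the kinase complex mTORC1 controls their translation. That control acts on translation, which RNA abundance does not measure. In dendritic cells, activation is known to change protein synthesis along with the metabolism of the cell.

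The 80 genes were abundant in all 4 libraries and differed little between them. None differed by 2-fold in any comparison, whereas 2.87% of the 13120 genes listed for Wnt2 against control were at least 2-fold higher and 2.93% at least 2-fold lower. The same background was 6.68% and 8.69% of 13329 genes for CAF.CM against control, and 1.02% and 3.65% of 13072 genes for CAF.CM+Wnt2 Ab against CAF.CM. Within that narrow range the 80 genes leaned one way in each comparison with control: with Wnt2, 69 of 80 had a ratio below 0 on the log2 scale and 11 above (53% and 47% of all genes), and with CAF.CM, 62 had a ratio above 0 and 18 below (46.7% and 53.3% of all genes). When the Wnt2 antibody was added to CAF.CM, 26 were above 0 and 54 below (45.2% and 54.8% of all genes), a lean that depends on the scaling, since their median of -0.03 becomes 0.01 with DESeq2 size factors and 0.00 with TMM factors. Both comparisons with control use the same control library, so a high or low value in it enters both.

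**Figure D1:**
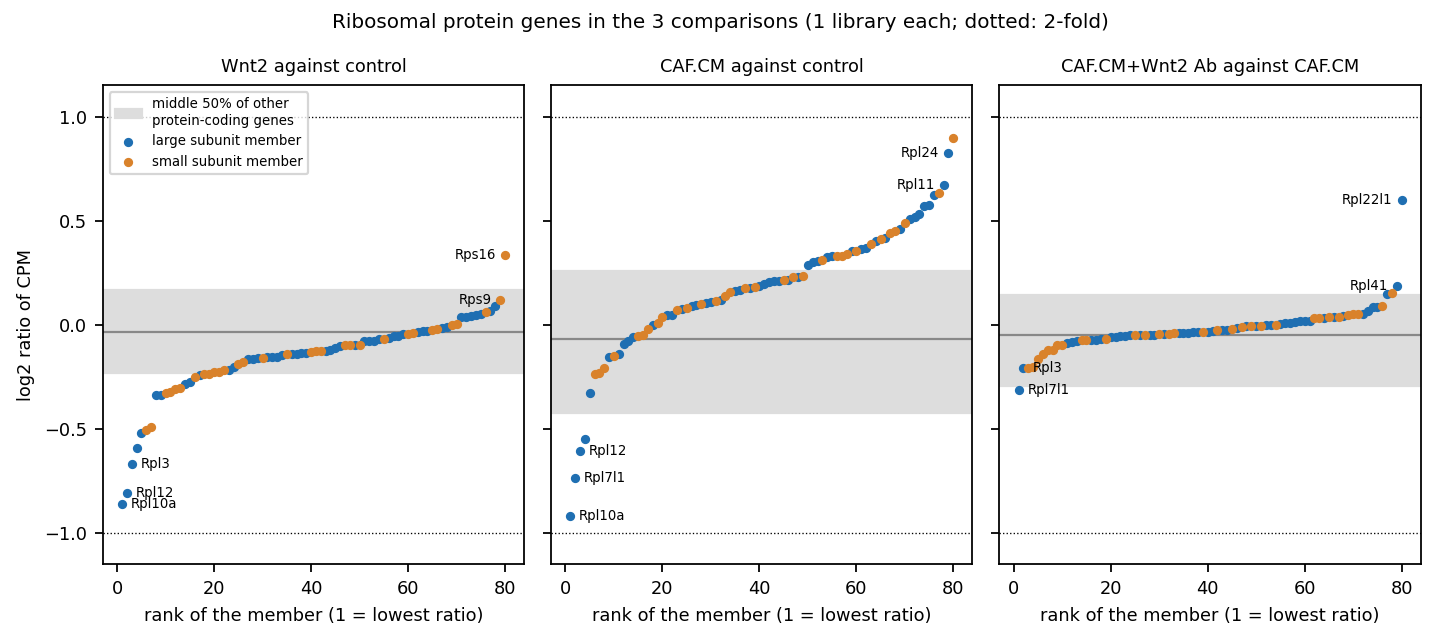
Log2 ratio of CPM (vertical axis) of the 80 ribosomal protein genes, ordered from lowest to highest in each comparison (horizontal axis), with large subunit genes in blue and small subunit genes in orange. The grey band is the middle 50% of the other protein-coding genes and the grey line their median. All points lie between the dotted lines at 2-fold, and among the outermost are Rpl10a (-0.86) with Wnt2, Rpl10a (-0.92) with CAF.CM, and Rpl22l1 (0.60) with the antibody.

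The control library held 143071376 reads in listed genes, Wnt2 154399767, CAF.CM 25225220 and CAF.CM+Wnt2 Ab 22791494, so both libraries that received CAF.CM are shallower than the others. These reads were worked out from the steps in the CPM values. For control and Wnt2 the steps are small beside the 3 decimals given, so their read numbers, and the intervals that use them, are estimates that rest on a fit. Values are CPM, read counts scaled by the authors to a common library size, and a log2 ratio compares the CPM of 2 libraries after adding a prior count of 2 reads. Each interval is a 95% one, from the exact binomial distribution of a gene's reads between 2 libraries, and covers counting error only. Their median half-width over the 80 genes was 0.02 for Wnt2, 0.03 for CAF.CM and 0.04 for the antibody, on the log2 scale. The cells were checked against marker genes. Of 10 dendritic cell markers 9 were listed in the control library, with a summed level of 2747 CPM there, 696 with Wnt2, then 1358 with CAF.CM and 1257 with CAF.CM+Wnt2 Ab. All 10 macrophage and monocyte markers were also listed, at summed levels of 3355, 2231, 1741 and 1303 CPM. These sums were above those of the dendritic cell markers in every library, and furthest above them with Wnt2. Of 10 neutrophil markers 3 or 2 were listed, at 549, 1503, 144 and 102 CPM, nearly all of it from Mmp8. Fibroblast markers summed to between 12.8 and 18.1 CPM, markers of dividing cells to 169, 118, 110 and 108 CPM, and no B cell or erythroid marker was listed. The part of these shifts in the ribosomal protein results was not tested. In such bulk RNA, fewer cells of a type and less RNA per cell cannot be told apart.

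The 80 genes together held 3.34% of the reads of genes listed in all 3 tables in control medium (exact binomial interval 3.33% to 3.34%). Their share was 3.03% with Wnt2 (3.02% to 3.03%), 3.92% with CAF.CM (3.92% to 3.93%) and 3.80% with CAF.CM+Wnt2 Ab (3.79% to 3.80%). Wnt2 was thus the lowest library and the pair that received CAF.CM the highest, with differences that are larger than counting error but have no replicate spread to be set against. A single gene followed this order in many cases. Of the 80 genes, 60 had their lowest CPM of the 4 libraries with Wnt2, against 21.1% of the 12473 genes listed in all 3 tables. In 60 of 80 both libraries with CAF.CM exceeded both without it, against 28.3% of all genes, and in 5 (Rpl10a, Rpl23a, Rpl7l1, Rplp0 and Rps4x) both lay below, against 36.7%. Control medium was the highest of the 4 libraries for 17 of the 80 (31.8% of all genes) and the lowest for 9 (24.9%).

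The rest of the RNA also differed between these libraries. The nuclear long noncoding RNA Malat1 held 1.38% of reads in the control library, 1.76% in Wnt2, then 2.86% in CAF.CM and 3.86% after addition of the antibody. Reads of protein-coding genes made up 81.2%, 80.1%, 75.8% and 72.4%, and those of mitochondrially encoded genes 5.28%, 6.10%, 4.27% and 4.11%, in the same order. Mitochondrially encoded mRNAs taken alone had median log2 ratios of -0.12 with Wnt2, -2.03 with CAF.CM and -1.43 with the antibody. With CAF.CM 11 of 13 listed were at least 2-fold lower and 0 higher (8.69% and 6.68% of all genes). With the antibody 8 of 12 were lower and 0 higher (3.65% and 1.02% of all genes). The part of RNA composition and depth in the higher ribosomal protein share with CAF.CM was not tested. Counted against protein-coding reads alone, the share was 4.11%, 3.78%, 5.18% and 5.24%, so that the antibody library, not CAF.CM, was then the highest.

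**Figure D2:**
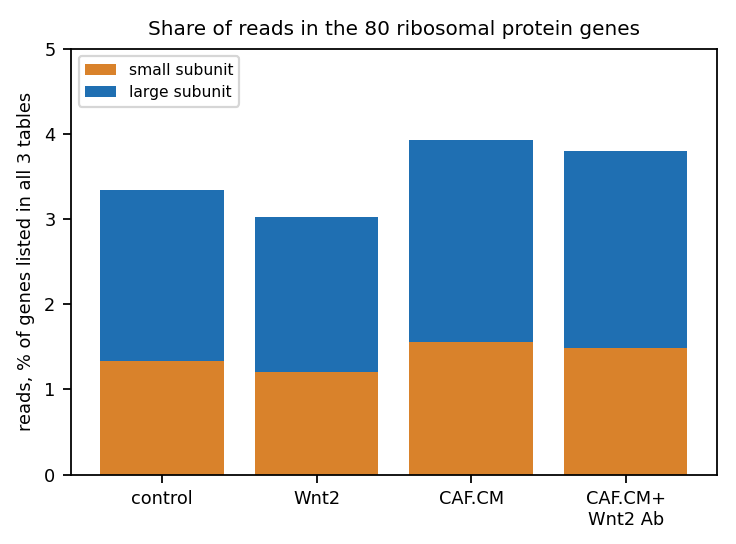
Share of reads (vertical axis, percent of the reads of genes listed in all 3 tables) in the 80 ribosomal protein genes in each library, divided into small subunit (orange) and large subunit genes (blue). The total goes from 3.03% with Wnt2 to 3.92% with CAF.CM, and both subunits follow the same order of libraries.

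Large and small subunit genes differed by similar amounts between libraries. The large subunit took 2.01%, 1.83%, 2.36% and 2.31% of reads in control medium, Wnt2, CAF.CM and CAF.CM+Wnt2 Ab, and the small subunit 1.33%, 1.2%, 1.56% and 1.49%. The summed CPM of large subunit genes was 1.51 times that of small subunit genes in control medium, 1.52 times with Wnt2, 1.51 times with CAF.CM and 1.55 times with the antibody. As medians of log2 ratios, large and small subunit genes stood at -0.12 and -0.14 with Wnt2, at 0.20 and 0.18 with CAF.CM, and at -0.03 and -0.04 with the antibody. The differences between the subunits, 0.01, 0.02 and 0.01, are small beside the spread among the genes of either subunit. The 80 genes as a whole had medians of -0.13, 0.19 and -0.03, against -0.02, -0.04 and -0.04 for all listed genes.

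The ratios were also closely grouped. With Wnt2 they ran from -0.86 to 0.33, and the width of their middle 50% was 0.18, against 0.36 for the 4213 other protein-coding genes with at least 10000 reads over both libraries. With CAF.CM they ran from -0.92 to 0.89 with a middle 50% of 0.31 wide, against 0.69 for 2575 other such genes. With the antibody the middle 50% spanned only 0.07, against 0.36 for 485 other such genes, and the ratios ran from -0.31 to 0.60. Counting error was nevertheless small enough to separate most genes from 0. The interval lay wholly below 0 for 67 genes with Wnt2 and wholly above for 10 (40.9% and 34.8% of all genes). With CAF.CM these numbers were 16 below and 61 above (40.3% and 32.5% of all genes), and with the antibody 32 below and 13 above (29.2% and 21.5%).

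Past a lower threshold of 1.5-fold, 4 genes were lower with Wnt2 and 0 higher, where 8% and 7.38% of all genes passed. The lower genes were Rpl10a, Rpl12, Rpl3 and Rpl22l1, all of the large subunit. With CAF.CM, 5 genes were higher (among them Rpl24, Rpl11, Rps16 and Rpl7a) and 3 lower (Rpl10a, Rpl7l1 and Rpl12), where 13.8% and 17.9% of all genes passed. With the antibody 1 gene was higher (Rpl22l1) and 0 lower, where 4.4% and 10.7% passed. In the authors' deposited table the adjusted p was below 0.05 for 4 of the 80 genes with Wnt2 (15.4% of all genes), the same 4 as above. It was below 0.05 for 14 with CAF.CM (32.6% of all genes) and for 0 with the antibody (6.98% of all genes). The spread behind those deposited values is not stated, so they are given as the authors' values only.

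Rpl10a and Rpl12 encode proteins beside the stalks of the large subunit, and Rpl3 a core protein near the site of peptide bond formation. Rpl10a (chr17:28328471-28331033, plus strand, GRCm38) was at 271 CPM in control medium, 149 with Wnt2, then 143 with CAF.CM and 139.8 with CAF.CM+Wnt2 Ab. Control medium was thus the high library, and the other 3 lay close together. The log2 ratio was -0.86 with Wnt2 (interval -0.88 to -0.84), -0.92 with CAF.CM (-0.96 to -0.87) and -0.04 with the antibody (-0.10 to 0.03).

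Rpl12 (chr2:32961559-32965345, plus strand) was also highest in control medium, but lowest with Wnt2. It was at 397 CPM in control medium, 227 with Wnt2, then 261 with CAF.CM and 268 with the antibody. Its log2 ratios were -0.81 with Wnt2 (-0.82 to -0.79), -0.61 with CAF.CM (-0.64 to -0.57) and 0.04 with the antibody (-0.01 to 0.09). Rpl3 (chr15:80077791-80091868, minus strand) was at 611, 384, 418 and 362 CPM in that order of libraries, again with control medium as the highest. Its log2 ratios were -0.67 with Wnt2 (-0.68 to -0.65), -0.55 with CAF.CM (-0.58 to -0.52) and -0.21 with the antibody (-0.25 to -0.17). For these 3 genes Wnt2 and CAF.CM differed from control medium in the same direction, and both comparisons share the control library.

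Other genes were higher with CAF.CM and near control with Wnt2. Rpl24 (chr16:55966275-55971435, plus strand), a large subunit protein that contacts the small subunit, was at 252, 268, 446 and 494 CPM in control medium, Wnt2, CAF.CM and CAF.CM+Wnt2 Ab. Its log2 ratio was 0.82 with CAF.CM (0.79 to 0.85), 0.09 with Wnt2 and 0.15 with the antibody (0.11 to 0.18). Rpl11 (chr4:136028265-136053428, minus strand), which with Rpl5 can bind the p53 regulator Mdm2 outside the ribosome, was at 322, 314, 512 and 510.3 CPM, a ratio of 0.67 with CAF.CM (0.64 to 0.70). Rpl7a was at 488, 463, 754 and 753 CPM, a ratio of 0.63 with CAF.CM (0.60 to 0.65). In these 3 genes the control and Wnt2 libraries were closer to each other than to the rest, and both CAF.CM libraries stood above them.

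Rps16, a protein of the small subunit head, was the highest of the 80 genes with Wnt2. It was at 188 CPM in control medium, 237 with Wnt2, then 292 with CAF.CM and 277 with the antibody, so control medium was the lowest library. Its log2 ratios were 0.33 with Wnt2 (0.31 to 0.36), 0.63 with CAF.CM (0.60 to 0.67) and -0.07 with the antibody (-0.12 to -0.03). Besides Rps16, the genes above 0 with Wnt2 included Rpl13a, Rpl23a, Rpl24, Rpl27a, Rpl28, Rpl29, Rps15, Rps26 and Rps9, all of these at 0.12 or less. Rps9 was at 829, 899.5, 911 and 790.0 CPM, and its ratio of -0.21 with the antibody (-0.23 to -0.18) was among the 4 lowest of that comparison.

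**Figure D3:**
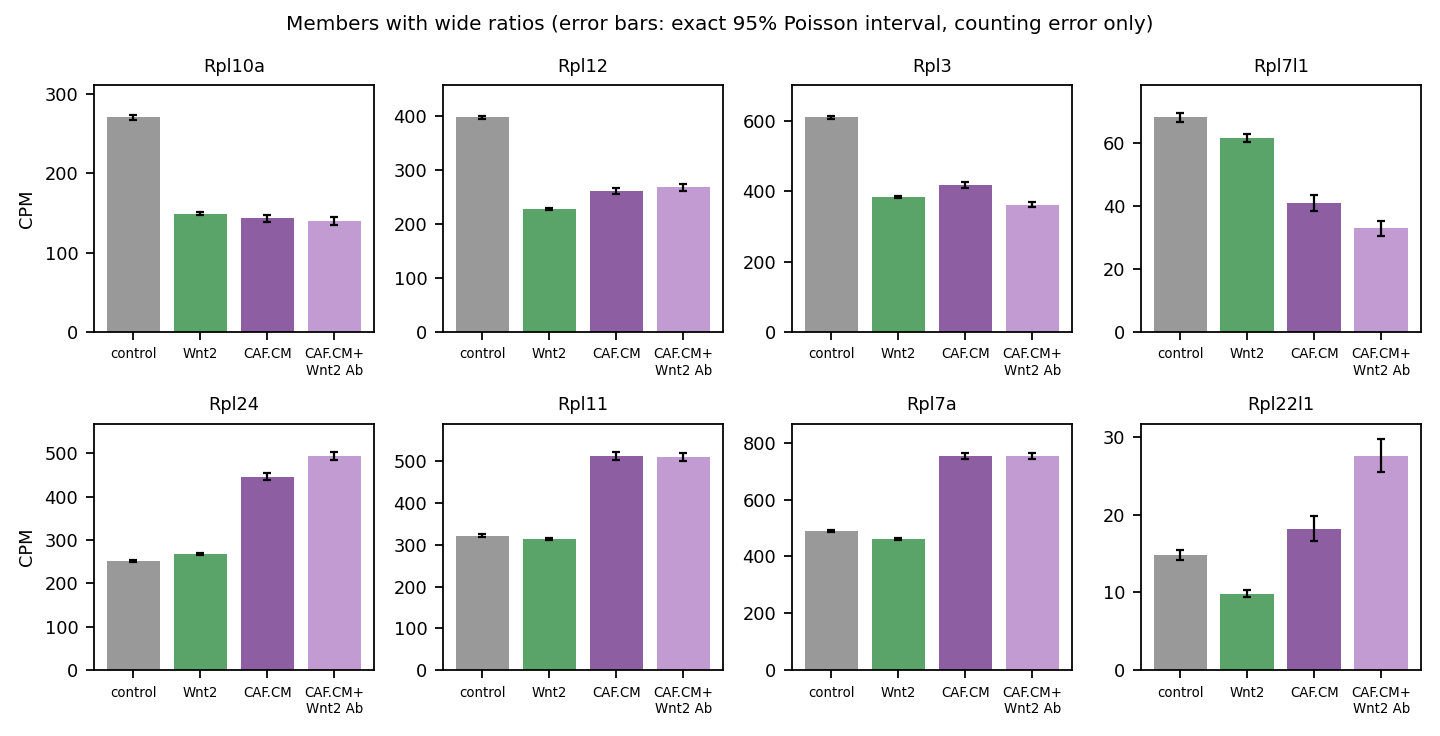
CPM (vertical axes, from 0) of 8 ribosomal protein genes in the 4 libraries, 1 bar per library, with exact 95% Poisson intervals that cover counting error only. Rpl10a, Rpl12 and Rpl3 are highest in control medium, Rpl24, Rpl11 and Rpl7a are higher in both CAF.CM libraries, and Rpl7l1 and Rpl22l1 are both lower with Wnt2 than in control medium but go opposite ways in the CAF.CM libraries.

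The start sites of genes that differed most are set side by side here, since the pyrimidine run is what most of these mRNAs have in common. RefSeq (GRCm38.p6) promoters, from 250 bases before to 50 after the annotated start, were at hand for 60 of the 80 genes. Each line below is 30 bases, 5′ to 3′ on the gene's strand, with a pyrimidine run in capitals. It is the longest run that begins with C and has this first base between 30 bases before and 40 after the start. A run that begins outside those limits was not counted, and one that begins inside them was followed past their end. The first 2 genes were lower in both comparisons with control, and the next 4 were higher with CAF.CM. Then come both outlying paralogues and, for comparison, Rps6, with a ratio near 0 with Wnt2, and Rpl27a, with the longest run among those searched (20 bases).
Rpl10a, chr17:28328572-28328601, plus strand: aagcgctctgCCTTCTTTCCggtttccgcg
Rpl12, chr2:32961732-32961761, plus strand: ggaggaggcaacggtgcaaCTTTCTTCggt
Rpl11, chr4:136053357-136053386, minus strand: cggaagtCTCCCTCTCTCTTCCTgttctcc
Rpl24, chr16:55966295-55966324, plus strand: gaagtgacatcatCTCTgggcgccggggtc
Rps16, chr7:28350665-28350694, plus strand: gccgtaaagcccgCTTCTgtcgtgacgtag
Rpl7a, chr2:26910789-26910818, plus strand: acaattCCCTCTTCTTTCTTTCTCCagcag
Rpl22l1, chr3:28805500-28805529, plus strand: gcaagcccgttCTCTTCCCacggctgcagc
Rpl7l1, chr17:46782664-46782693, minus strand: gcgggcctctctaCCCCgcccggtgaggct
Rps6, chr4:86857349-86857378, minus strand: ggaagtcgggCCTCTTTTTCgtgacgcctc
Rpl27a, chr7:109519186-109519215, plus strand: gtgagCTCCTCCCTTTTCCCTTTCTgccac
Long runs stood in genes of either direction. Rpl10a and Rpl12, which were lower, have runs of 10 and 8 bases, and Rpl11 and Rpl7a, which were higher with CAF.CM, have 16 and 19. In Rpl10a, Rpl12, Rpl11 and Rpl7a these runs begin at 17, 39, 14 and -12 bases from the annotated start, a negative value lying before it. Rpl24 and Rps16, also higher with CAF.CM, have no run over 4 and 5 bases that begins within these limits, and Rpl7l1 has none over 4. The Rpl7l1 line also holds the longer run cctctct, left in lower case because it begins just before the limit. Rpl12 also has a shorter run, of at least 5 bases, that begins within 5 bases of the start and lies outside its line. A missing run says only that these letters do not begin within the limits around this annotated start.

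Over all 60 genes with a promoter, 42 (70%) held a pyrimidine run of at least 8 bases that begins with C within those limits, against 20.3% of the 9172 other listed protein-coding genes with a promoter. A run of at least 5 bases that starts within 5 bases of the annotated start was found in 38.3%, against 16.9%. Within the group the run did not separate the ratios. The 42 genes with a run of at least 8 bases had median log2 ratios of -0.13 with Wnt2, 0.20 with CAF.CM and -0.02 with the antibody, and the 18 without one had -0.11, 0.19 and -0.05.

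Other motifs were searched over the whole 300 bases on both strands, none of them containing another. CCGGAAG, the core of sites for ETS-family factors, occurred in 38.3% of the 60 promoters, against 19.5% of the 9172 others, and ATGGCG, found in sites for YY1, in 28.3% against 16.5%. GGGCGG, the GC box, occurred in 61.7% against 64.8%, TATAAA in 10% against 6.71%, and the E-box CACGTG in 8.33% against 10.3%. The 17 genes with ATGGCG had a median ratio of 0.33 with CAF.CM, and the 43 without it 0.18. For CCGGAAG the 2 medians were 0.21 and 0.18. The 6 genes with TATAAA stood at 0.02 with CAF.CM, and the 54 without it at 0.21. For GGGCGG the medians with and without it were 0.19 and 0.21, and for CACGTG 0.23 and 0.19, again with CAF.CM. With Wnt2 the medians with and without the motif were -0.07 and -0.14 for ATGGCG, and -0.14 and -0.12 for CCGGAAG. They were -0.24 and -0.12 for TATAAA, -0.14 and -0.05 for GGGCGG, and -0.12 and -0.13 for CACGTG. With the antibody all of these medians lay between -0.05 and 0.06. A match is a description of letters and does not show that a factor binds there.

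Several of the outermost ratios belonged to paralogues. Rpl22l1 (chr3:28805436-28807424, plus strand), which can replace Rpl22 in the ribosome, was the least abundant of the 80, at 14.9 CPM in control medium, 9.86 with Wnt2, then 18.2 with CAF.CM and 27.6 with CAF.CM+Wnt2 Ab. Its log2 ratios were -0.59 with Wnt2 (-0.69 to -0.50), 0.29 with CAF.CM (0.14 to 0.43) and 0.60 with the antibody (0.43 to 0.78), the last being the largest antibody ratio of the 80. Its partner Rpl22 hardly differed, at 188, 182, 218 and 214 CPM. Rpl22l1 therefore made up 7.32% of the reads of the pair in control medium (exact binomial interval 7.02% to 7.63%), 5.15% with Wnt2 (4.90% to 5.41%), 7.68% with CAF.CM (7.03% to 8.37%) and 11.4% with the antibody (10.6% to 12.3%).

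Rpl7l1 (chr17:46773907-46782672, minus strand), a paralogue of Rpl7, was lower in the 3 other libraries than in control medium, at 68.0 CPM in control medium, 61.6 with Wnt2, then 40.9 with CAF.CM and 32.8 with the antibody. Its log2 ratios were -0.14 with Wnt2 (-0.18 to -0.10), -0.74 with CAF.CM (-0.83 to -0.64) and -0.31 with the antibody (-0.45 to -0.18). Both Rpl7l1 and Rpl22l1 were thus lower with Wnt2, and they went opposite ways with CAF.CM and with the antibody. Its share of the pair with Rpl7 went from 10.2% (9.97% to 10.4%) in control medium and 9.45% with Wnt2 to 5.60% (5.27% to 5.93%) with CAF.CM and 4.68% (4.36% to 5.02%) with the antibody. Rps27l, a p53-inducible paralogue of Rps27, kept a similar share of its pair, at 9.53%, 8.74%, 9.10% and 9.33%.

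Rpl36al, whose symbol falls outside the rule, showed a further shift. It was at 115, 121, 198 and 204 CPM, beside 176, 172, 175 and 171 CPM for Rpl36a, and so went from 39.7% of the pair's reads (39.2% to 40.1%) in control medium to 52.99% with CAF.CM (52.0% to 54.0%) and 54.5% with the antibody. The X-linked Rps4x was at 496, 424, 421 and 401 CPM, while Rps4l, annotated as a transcribed pseudogene, stayed between 1.59 and 3.05 CPM. Rpl3l, Rpl10l and Rpl39l, paralogues known mainly from muscle and testis, were not among the rows analysed here.

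**Figure D4:**
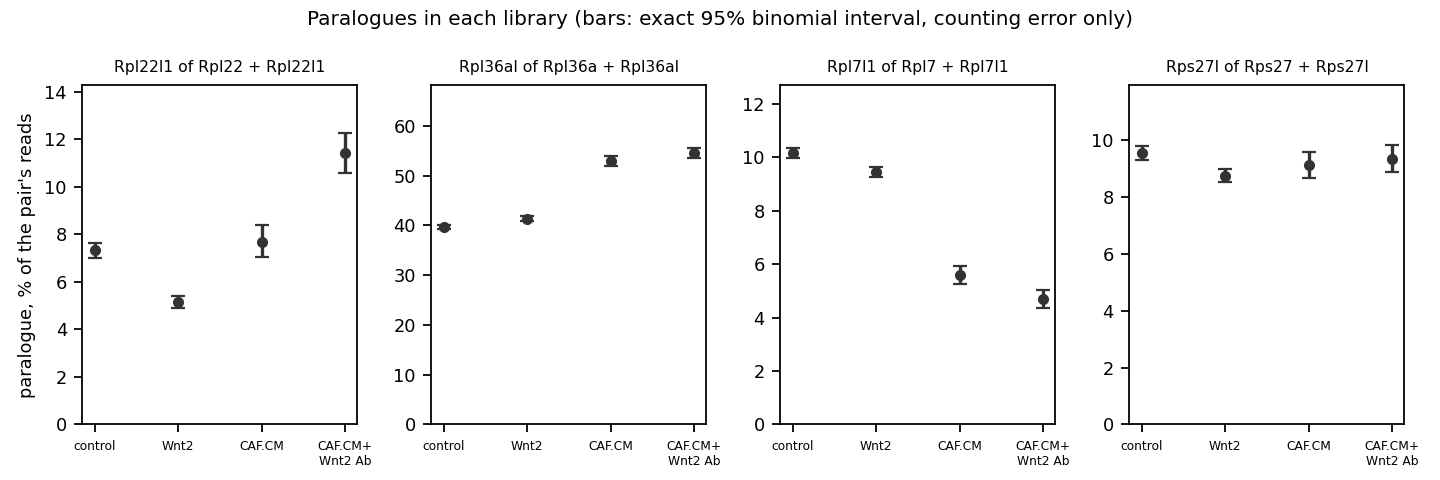
Share of a paralogue in the reads of its pair (vertical axes, percent) in the 4 libraries, with exact 95% binomial intervals that cover counting error only. Rpl22l1 is highest in the antibody library (11.4%), Rpl7l1 lowest there (4.68%), Rpl36al passes 50% in both CAF.CM libraries, and Rps27l stays between 8.74% and 9.53%.

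Among the stalk proteins, which recruit the elongation factors, Rplp1 stood at 354 CPM in control medium, 247 with Wnt2, then 332 with CAF.CM and 333.5 with the antibody. Wnt2 was the low library (log2 ratio -0.52, interval -0.54 to -0.50). Its dimer partner Rplp2 was at 337, 293, 384 and 393 CPM (ratio -0.20 with Wnt2), and Rplp0, which anchors both, at 1057, 942, 842 and 892 CPM. Rplp0 thus was lower with CAF.CM (-0.33, interval -0.35 to -0.31), where Rplp2 was at 0.19. Rpsa, a small subunit protein also known as the laminin receptor, had the most CPM of the 80 in control medium. It was at 1139 CPM there, 809.7 with Wnt2, 986 with CAF.CM and 859 with the antibody, a ratio of -0.49 with Wnt2 (-0.50 to -0.48).

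Rps6, the substrate of the S6 kinases, was at 717, 716, 843 and 833 CPM, with a ratio of -0.00 with Wnt2 (-0.01 to 0.01) and 0.23 with CAF.CM (0.21 to 0.26). Rpl5 was at 968, 887, 917 and 903 CPM (-0.13 and -0.08), so that it did not share the higher level of its partner Rpl11 with CAF.CM. The antibody ratios were small throughout. After Rpl22l1 the highest were Rpl41 (0.19), which encodes the shortest of the ribosomal proteins, Rps19 (0.15), a gene mutated in Diamond-Blackfan anaemia, and Rpl24. Rpl41 was at 387, 362, 499 and 569 CPM.

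Levels of different genes were compared per kilobase of the principal transcript. In control medium the median was 515 CPM per kb, and the highest were Rps27 (1112), Rps9 (1104), Rpl26 (1058), Rpl10 (1010) and Rpl19 (969.7 CPM per kb). Rpl22l1 (26.9) and Rpl7l1 (51.9 CPM per kb) were the lowest. The value of 72.9 for Rps20 rests on a gene model of 3706 bases. The order of the 80 genes was kept between libraries, with a Spearman correlation of CPM per kb of 0.96 between control and Wnt2, 0.89 between control and CAF.CM, and 0.99 between CAF.CM and CAF.CM+Wnt2 Ab. These correlations run over genes that share transcript lengths and, in each pair, the library preparation, and they are given as descriptions. Between Wnt2 and CAF.CM it was 0.92.

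Ribosomal proteins with other names were also read. Fau, which encodes a small subunit protein fused to a ubiquitin-like domain, was at 495, 582, 835 and 852 CPM, a ratio of 0.23 with Wnt2 (0.22 to 0.25) and 0.75 with CAF.CM (0.73 to 0.77). Rack1, a scaffold on the small subunit, stood at -0.25 and 0.01. With the antibody Fau was at 0.03 and Rack1 at -0.06. The 5 genes with patterns nearest to the members' medians, by Euclidean distance over the 3 ratios among 533 protein-coding genes with at least 200 CPM in control, were Eef2 (distance 0.07), Txnip (0.11), Eef1a1 (0.12), Numa1 (0.13) and Arpc2 (0.15). Eef2 and Eef1a1 are translation elongation factors.

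Other mRNAs known to carry the pyrimidine tract, 20 genes of elongation factors, Tpt1, Pabpc1, Npm1 and others, had medians of -0.06 with Wnt2, 0.47 with CAF.CM and -0.01 with the antibody. With CAF.CM 2 of them passed 2-fold higher and 0 lower, where 6.68% and 8.69% of all genes passed. The 2 were the splicing factor gene Hnrnpa1 (1.56) and the helicase gene Eif4a2 (1.34). Naca and Btf3, both subunits of the complex that binds nascent chains at the ribosome, stood at 0.87 and 0.84. The 28 other initiation factors had medians of -0.09, 0.10 and 0.10, with none past 2-fold. Eif4a1 was at -0.47 with Wnt2 and -0.71 with CAF.CM.

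Genes whose products make ribosomes had lower medians with CAF.CM than the ribosomal protein genes. Of 59 biogenesis factors 58 were listed, with medians of -0.17 with Wnt2, -0.10 with CAF.CM and 0.01 with the antibody. Only 1 was past 2-fold, Rcl1 (1.02 with CAF.CM, where 6.68% of all genes were 2-fold higher). The 17 genes of the RNA polymerase I machinery had medians of 0.03, 0.07 and -0.01. Among them Polr1d was 2-fold higher with CAF.CM (1.11) and Ubtf, the factor that holds ribosomal DNA open, 2-fold lower (-1.32, from 75.8 to 30.3 CPM). Of the 27 genes around mTORC1 and S6 kinase, with medians of -0.11, -0.18 and -0.08, Ddit4, an inhibitor of mTORC1, was 2-fold higher or more with Wnt2 (3.88) and CAF.CM (4.01). It was at 6.27 CPM in control medium, 92.7 with Wnt2, then 101 with CAF.CM and 148 with the antibody. Myc, a driver of ribosome production, was lower with Wnt2 (-1.22, interval -1.42 to -1.03) and CAF.CM (-2.08, -2.69 to -1.57). Its level was 4.79 CPM in control medium, 2.05 with Wnt2 and 1.11 with CAF.CM. Sesn1, also among the 27 genes, went the opposite way to Ddit4, at -0.86 with Wnt2 and -0.96 with CAF.CM. With the antibody Sesn1 was at -0.55 and Ddit4 at 0.54. Of these 27 genes 4 were 2-fold lower with CAF.CM and 1 higher, where 8.69% and 6.68% of all genes passed. Among the lower genes were Rps6ka3 (-1.33) and Rps6ka2 (-1.22).

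Other groups of housekeeping complexes gave medians near those of the ribosomal protein genes. The 78 mitochondrial ribosomal protein genes stood at -0.07 with Wnt2, 0.17 with CAF.CM and 0.04 with the antibody. The nuclear genes of the respiratory chain and ATP synthase, taken by symbol and so including assembly factors such as Ndufaf2, stood at -0.16, 0.21 and 0.05. The 38 proteasome genes stood at -0.15, 0.17 and 0.10. The ribosomal protein genes are thus not set apart by their medians with Wnt2 and CAF.CM. Few genes of these other groups passed 2-fold either. With Wnt2 and with the antibody 0 mitochondrial ribosomal protein genes and 0 proteasome genes did. With CAF.CM 2 of each were higher and 0 lower, where 6.68% and 8.69% of all genes passed. Of the nuclear respiratory chain genes, 1 was 2-fold lower in each comparison with control. The 17 listed p53 target genes had medians of -0.00, 0.18 and 0.39. With the antibody 2 of them were 2-fold higher, Gdf15 (1.74) and Zmat3 (1.08), and 0 lower, where 1.02% and 3.65% of all genes passed.

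**Figure D5:**
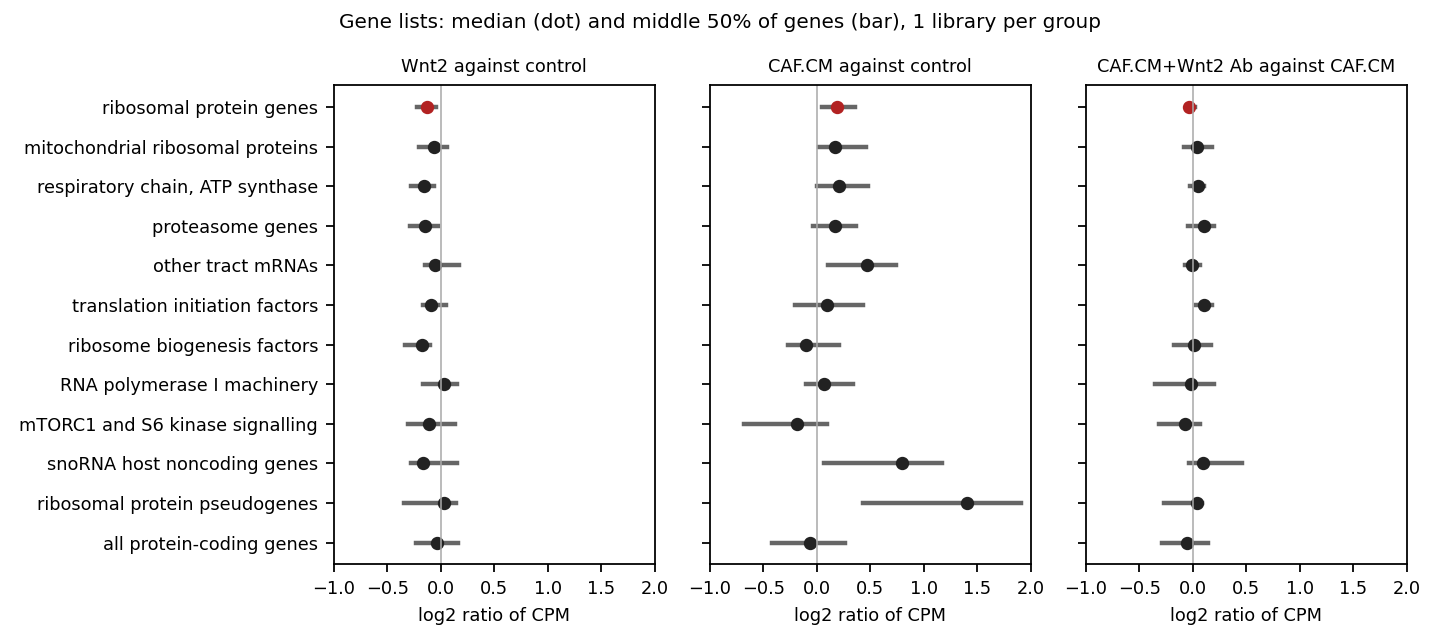
Median (dot) and middle 50% (bar) of the log2 ratio of CPM (horizontal axes) for the ribosomal protein genes (red) and other gene lists (black) in the 3 comparisons. With CAF.CM the ribosomal protein median of 0.19 lies among those of mitochondrial ribosomal proteins, respiratory chain and proteasome, below the other tract mRNAs (0.47), the snoRNA host genes (0.80) and the ribosomal protein pseudogenes (1.41). More of these pseudogenes were listed for CAF.CM against control (19) than for Wnt2 against control (10), which can raise that median.

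Many ribosomal protein genes carry small nucleolar RNAs (snoRNAs), which guide ribosomal RNA modification, in their introns. In the GENCODE M21 annotation 30 of the 80 hold 58 such genes. Their median ratios were -0.13 with Wnt2, 0.11 with CAF.CM and -0.04 with the antibody, and those of the 50 without one were -0.13, 0.21 and -0.02. Of 13 listed noncoding snoRNA host genes, 5 were at least 2-fold higher with CAF.CM and 0 lower, where 6.68% and 8.69% of all genes passed. Of the 13 genes 10 had a ratio above 0 and 3 below, and their median was 0.80. Zfas1 was at 20.6 CPM in control medium and 89.9 with CAF.CM (2.12, interval 2.04 to 2.20), Epb41l4aos at 7.54 and 30.6 CPM (2.02), Snhg6 at 1.53 and Snhg5 at 1.17. With Wnt2 the median of the 13 was -0.16.

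Ribosomal protein genes have many processed pseudogenes, so reads can be assigned to either. More than 50% of the 31-base words were shared with another gene's transcript in 56 of the 80, and the median was 62.8%. Ribosomal protein pseudogenes were taken by symbol, with -ps after the name of the gene. Those listed in all 3 tables held 0.00307% of the control library, 0.00289% of Wnt2, 0.00548% of CAF.CM and 0.00518% of the antibody library. With CAF.CM 12 of 19 listed pseudogenes were 2-fold higher and 0 lower, where 6.68% and 8.69% of all genes passed. Their median was 1.41, while all 189 processed pseudogenes listed had a median of 0.71. For Wnt2 against control only 10 and 139 of these kinds were listed. Some may thus be listed with CAF.CM only because they are high there, which can raise the count and both medians. Since the ribosomal protein pseudogenes listed in all 3 tables held under 0.01% of reads, adding them left the share of the group at 3.34% in control medium and 3.03% with Wnt2. Pseudogenes with symbols of another form were not counted. Across the 80 genes the ratios had Spearman correlations of -0.02, 0.00 and 0.04 with the percentage of shared words, as a description. The 24 genes at or under 50% shared words had medians of -0.13 with Wnt2, 0.19 with CAF.CM and -0.04 with the antibody, close to those of all 80.

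Transcript length moved with 1 comparison. The correlation of the ratio with transcript length was 0.00 with Wnt2 and -0.04 with CAF.CM, but -0.38 with the antibody, where the shorter ribosomal protein transcripts tended to the higher ratios. Other short protein-coding genes, in the length range of the 80 without their longest 10%, had medians of -0.08 with Wnt2, 0.07 with CAF.CM and -0.01 with the antibody. Those of them with at least 100 CPM in control medium, 134 genes, stood at -0.17, -0.15 and -0.02. That limit was set on the control library, the reference of both comparisons with control. It favours genes that are high there, which can lower their medians with Wnt2 and CAF.CM. The part of transcript length in the antibody ratios was not tested.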

How the data were processed

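RNA-seq of mouse dendritic cells was analysed in 4 libraries. Per the labels' protocols, ribosomal RNA was removed and stranded libraries were made from 1 ug of total RNA. The submitters' processing notes name STAR 2.4.2a, RSEM 1.2.29, edgeR and the builds GRCm38.p5 and mm10, but the sources used here do not state settings or strand handling. The deposited tables, 1 per comparison, hold the authors' scaled CPM with 3 decimals. The authors' log2 fold changes and their p-values and adjusted p-values are in the same deposited tables, and the dispersion behind the p-values is not stated. The plan allowed for reads recovered from CPM: all values were whole multiples of a step of 1 read, within 0.1 read, and the step ranged from 0.00651 CPM (Wnt2) and 0.00706 (control) to 0.0384 (CAF.CM) and 0.0431 (antibody). For control and Wnt2 the steps are small beside the 3 decimals and rest on a fit, so their reads are estimates. Libraries in 2 tables had identical values in both (12954 of 12954 genes for control, 12848 of 12848 for CAF.CM).

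Log2 ratios used a prior count of 2 and the authors' scaling, with exact binomial intervals (scipy 1.17.1, numpy 2.4.6, pandas 2.3.3, Python 3.11.15, matplotlib 3.10.9), and were tested on simulated data. No test was run, since each group has 1 library. A gene was called past 2-fold. Alternatives were other scalings (edgeR 4.0.16, DESeq2 1.42.0, R 4.3.3), prior counts, a 1.5-fold threshold, a minimum of 100 reads and the deposited fold changes. The 80 genes and the lists were chosen with earlier results of these data known. Named genes are the 4 highest and 4 lowest ratios per comparison with at least 200 reads, the 5 highest levels per kilobase, the paralogue pairs, Rpsa, the stalk genes, Rps6, Rpl5 and Rpl11, and up to 4 genes per other list. Rpl27a, Malat1 and names that only spell out a count were chosen after their values were seen. Transcripts (shortest principal) and shared 31-base words came from GENCODE M21, and promoters from RefSeq. A few of the genes taken by this rule are not reported here.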

Additional observations from a re-analysis of the deposited data

How the results depend on the processing

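All intervals cover counting error only, and without replicates no difference can be set against the spread between cultures. The median log2 ratio of the 80 genes with Wnt2 was -0.11 with DESeq2 size factors and -0.11 with own TMM factors, against -0.13. With CAF.CM it was 0.25 with total reads, 0.24 with DESeq2 size factors and 0.24 with TMM factors, against 0.19. The antibody median of -0.03 became 0.01 with DESeq2 size factors and 0.00 with TMM factors, so its sign depends on the scaling. The same scalings moved the median of all genes by at most 0.06, and the 80 genes lay -0.11, 0.24 and 0.01 from that median under each. Of the 29 named members, 7 changed sign with DESeq2 size factors in the antibody comparison, 2 with Wnt2 and 1 with CAF.CM. No member passed 2-fold under any of these settings. At 1.5-fold the counts were 4 lower with Wnt2, 5 higher and 3 lower with CAF.CM, and 1 higher with the antibody.

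The share of reads in control, Wnt2, CAF.CM and CAF.CM+Wnt2 Ab was 4.11%, 3.78%, 5.18% and 5.24% of protein-coding reads. It was 3.52%, 3.22%, 4.10% and 3.96% without mitochondrially encoded genes, and 2.86%, 2.61%, 3.47% and 3.37% without the 5 most abundant members. With the pseudogenes of -ps symbols listed in all 3 tables added it was 3.34% in control and 3.03% with Wnt2. The large to small subunit ratio was 1.41, 1.41, 1.42 and 1.46 per kilobase, and 1.52, 1.53 and 1.54 in control, Wnt2 and CAF.CM without those 5 members. Pearson correlations of log2 CPM were 0.95 for control and CAF.CM, 0.93 for control and CAF.CM+Wnt2 Ab, and 0.97 for Wnt2 and CAF.CM. No paired analysis was possible because each group has 1 column and no replicate fit exists.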
